A study of Rattus norvegicus with 3 samples.

Results

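Splicing factor and hnRNP genes were followed through the H3K4me2 peaks of rat liver after chronic treatment with olanzapine or clozapine. They are the gene names that begin with Srsf, Hnrnp, Snrp, Sf3a, Sf3b or Prpf among the names attached to peaks in either library. This rule, which reads the name only, found 55 of 12100 named genes, of which the olanzapine list named 39 and the clozapine list 51. All 55 matched a protein-coding symbol of a RefSeq names table. A further 11 genes of these families in that table were attached to no peak: Hnrnpa0, Prpf38a, Prpf39, Prpf4, Sf3a2, Snrpa1, Snrpd3, Snrpepl2, Snrpgl1, Snrpn and Srsf12.

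Introns are removed from pre-mRNA by the spliceosome, which is assembled from small nuclear ribonucleoprotein particles (snRNPs) and many protein factors. SR proteins bind exons and recruit the splicing machinery, hnRNPs coat nascent transcripts and often oppose exon inclusion, the SF3A and SF3B complexes hold the U2 snRNP on the branch site, and most PRPF proteins belong to the U4/U6.U5 tri-snRNP or act in spliceosome activation. These genes are used by every cell type, and H3K4me2, dimethylation of lysine 4 of histone H3, is known to surround the promoters and enhancers of active genes and to reach into the first part of the transcribed body.

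Female Sprague-Dawley rats took olanzapine (3 mg/kg), clozapine (20 mg/kg) or a drug-free vehicle pellet by mouth 2 times a day for 9 weeks, with 12 animals per group. Olanzapine is a thienobenzodiazepine and clozapine a dibenzodiazepine, and their doses differed. The way of dosing differed too. The paper reports that rats came to avoid the clozapine pellet within days. Clozapine was then given by syringe into the mouth, and a drug-free pellet followed. Each group has 1 liver library, labelled with 1 rat, so there was no replicate check and no test between the drugs. The vehicle library was not used here. Values from both drugs therefore stand side by side as descriptions of 2 libraries. A difference between them cannot be told apart from a difference between animals, ways of dosing, immunoprecipitations or read depths.

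The olanzapine list held 7128 peaks and the clozapine list 19449. In the study's alignment summary the clozapine library had far fewer mapped reads than the olanzapine library, while its list is longer. Read numbers per peak are not part of the lists, and the depth of each peak is therefore unknown. A peak is called proximal below when its class in the deposited annotation is upstream, 5′ UTR, exonic or splicing. The liver label was checked against marker genes: 12 of 14 hepatocyte markers had a proximal peak with olanzapine and 11 of 14 with clozapine. Markers of liver endothelial cells had one in 0 of 6 genes for olanzapine and 4 of 6 for clozapine, stellate cell markers in 0 of 5 and 2 of 5, lymphocyte markers in 0 of 5 and 1 of 5, and Kupffer cell markers in 0 of 5 in both. The part of other cell types in the values below was not tested.

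Most of the 55 genes carried a proximal H3K4me2 peak in each library, and the clozapine library gave the larger share although it marked fewer genes overall. A proximal peak was present for 32 of 55 members in the olanzapine library (58.2%, 95% Wilson interval 45.0 to 70.3), against 35.3% of all 12100 named genes. In the clozapine library it was present for 37 of 55 members (67.3%, 54.1 to 78.2), against 22.5% of all named genes. Both libraries marked 23 members (41.8%, 29.7 to 55.0), against 8.87% of all named genes. These intervals cover counting error only. The naming rule requires that a gene be attached to at least 1 peak, which raises every share, so the shares were also taken over protein-coding genes with a curated transcript. On that base 32 of 66 family genes (48.5%, 36.8 to 60.3) were marked in the olanzapine library against 21.5% of 18533 genes, and 37 of 66 (56.1%, 44.1 to 67.4) in the clozapine library against 13.8%. Among the strongest peaks the olanzapine share depended on the measure of strength: at a −log10 q of at least 5 it was 1.82% of members against 2.42% of all named genes, and at a fold enrichment of at least 5 it was 10.9% against 7.39%. The clozapine share was 12.7% against 3.14% at that q and 9.09% against 2.74% at that fold. With as many clozapine peaks as the olanzapine list holds, taken from the highest −log10 p down, 13 members (23.6%) were marked, against 5.63% of all named genes, and 7 (12.7%) in both libraries, against 2.11%.

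The members marked in both libraries were Srsf1, Srsf2, Srsf3, Srsf4, Srsf5, Srsf6, Hnrnpa3, Hnrnpab, Hnrnpc, Hnrnpd, Hnrnpdl, Hnrnpf, Hnrnpk, Hnrnpl, Hnrnpu, Hnrnpul1, Hnrnpul2, Snrpd2, Sf3b2, Sf3b4, Sf3b5, Sf3b6 and Prpf19. Members marked in the olanzapine library alone numbered 9, among them Hnrnpa1, Snrpa, Snrpb, Snrpc, Prpf18, Prpf31, Prpf4b and Prpf6. Members marked in the clozapine library alone numbered 14: Srsf7, Srsf10, Hnrnpa2b1, Hnrnph1, Hnrnph2, Hnrnph3, Hnrnpm, Hnrnpr, Snrpd1, Sf3b1, Sf3b3, Prpf3, Prpf38b and Prpf8. The remaining 9, Srsf9, Srsf11, Snrpb2, Snrpe, Snrpf, Snrpg, Sf3a1, Sf3a3 and Prpf40b, had no proximal peak in either. The 23 shared members were 71.9% of the members marked for olanzapine and 62.2% of those marked for clozapine. Over all named genes, 1073 shared genes were 25.1% of the olanzapine and 39.4% of the clozapine genes. These values lie near the share marked in the other library alone. For members that share was 67.3% for clozapine and 58.2% for olanzapine, and for all named genes 22.5% and 35.3%. On this base the sharing adds little to the shares of each library, but a name enters the base only through a peak in either list. Over protein-coding genes with a curated transcript the clozapine and olanzapine shares were lower. They were 56.1% and 48.5% for family genes and 13.8% and 21.5% for all genes. Whether sharing exceeds the shares of each library thus depends on the base, and no conclusion is drawn.

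**Figure D1:**
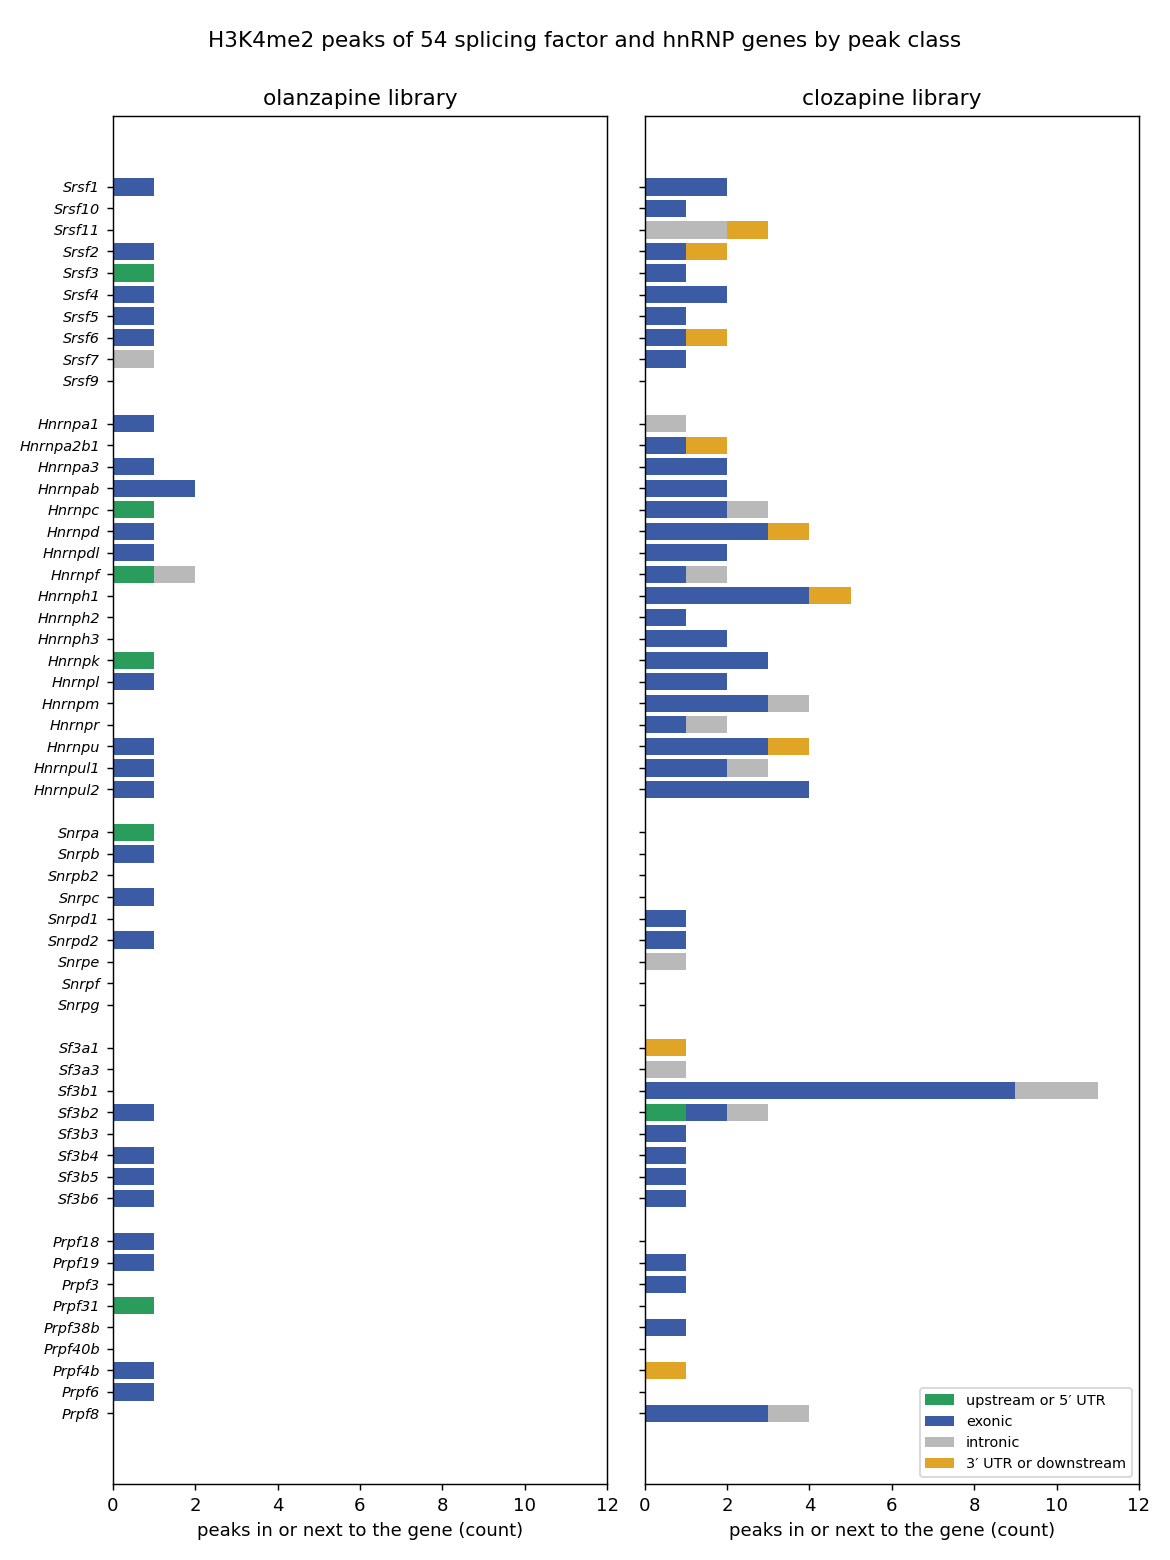
Number of non-intergenic H3K4me2 peaks (horizontal axis, count) of 54 of the 55 genes (rows, grouped by family) in the olanzapine library (left) and the clozapine library (right), coloured by the peak class of the deposited annotation. Olanzapine gave a gene at most 2 peaks, while clozapine gave Sf3b1 11 and hnRNP genes up to 5 (Hnrnph1).

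Counting a peak of any class but intergenic, 33 members (60.0%) had one in the olanzapine library against 41.8% of all named genes, and 43 (78.2%) in the clozapine library against 44.2%. Peaks of the upstream and 5′ UTR classes were less common. These classes do not hold every peak at a gene start, since exonic peaks of Srsf6 and Hnrnpu also covered it. They were present for 6 members in the olanzapine library (10.9%) against 11.3% of all named genes, and for 1 member in the clozapine library (1.82%) against 1.38%. By these classes alone the members did not stand out from the named genes at large. The exonic class made up the difference.

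Olanzapine peaks of the upstream or 5′ UTR class were present for 6 members: Srsf3, Hnrnpc, Hnrnpf, Hnrnpk, Snrpa and Prpf31. The Hnrnpk peak was placed 606 bp upstream of the gene and the Prpf31 peak 205 bp upstream, in a stretch shared with Tfpt. The sequences before the start of 4 of them are shown as examples of members whose peak the annotation placed upstream or in the 5′ UTR. They are the 250 bases upstream of the RefSeq start in assembly GRCr8, matched by symbol, and whether a peak covers these bases was not measured, since the peaks are placed on another assembly. Srsf3 lies at chr20:7093335-7093584, plus strand, Snrpa at chr1:91618043-91618292, minus strand, Hnrnpc at chr15:27282716-27282965, minus strand, and Prpf31 at chr1:74502923-74503172, minus strand. Capitals mark matches on either strand to GGGCGG (GC box), CGGAAG (ETS core), CCAAT and TATAAA.
Srsf3: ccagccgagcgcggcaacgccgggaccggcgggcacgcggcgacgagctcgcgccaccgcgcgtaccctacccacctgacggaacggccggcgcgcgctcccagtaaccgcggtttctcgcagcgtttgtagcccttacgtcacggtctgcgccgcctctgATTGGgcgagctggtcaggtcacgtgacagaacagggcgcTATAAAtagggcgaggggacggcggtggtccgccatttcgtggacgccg
Snrpa: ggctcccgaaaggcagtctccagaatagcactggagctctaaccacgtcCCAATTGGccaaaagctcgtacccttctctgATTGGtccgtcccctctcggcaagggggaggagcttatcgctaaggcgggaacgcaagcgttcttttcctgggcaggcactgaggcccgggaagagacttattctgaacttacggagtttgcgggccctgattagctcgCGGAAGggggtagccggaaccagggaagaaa
Hnrnpc: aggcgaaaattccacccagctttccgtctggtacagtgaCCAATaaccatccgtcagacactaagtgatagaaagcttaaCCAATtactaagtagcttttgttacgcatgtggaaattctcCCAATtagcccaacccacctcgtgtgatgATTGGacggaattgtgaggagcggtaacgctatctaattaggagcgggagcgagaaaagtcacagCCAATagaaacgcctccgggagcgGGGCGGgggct
Prpf31: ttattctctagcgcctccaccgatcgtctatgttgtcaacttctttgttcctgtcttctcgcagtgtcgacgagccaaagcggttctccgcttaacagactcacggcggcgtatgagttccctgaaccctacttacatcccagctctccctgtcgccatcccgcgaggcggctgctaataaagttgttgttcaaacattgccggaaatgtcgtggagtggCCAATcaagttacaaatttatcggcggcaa

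The 4 stretches differ from each other. Srsf3 has 40 CpG dinucleotides and a TATAAA near its start, together with 1 CCAAT match in reverse. Snrpa has 15 CpG, 3 CCAAT matches, of which 2 overlap in the palindromic run near the beginning, and 1 ETS core. Hnrnpc has 14 CpG, 5 CCAAT matches and 1 GC box, and Prpf31 has 19 CpG and 1 CCAAT match. Hnrnpk, which is not printed, has 1 CpG in its 250 bases and no match to any of the marked letters. Over the 50 members with a single entry in the RefSeq table, a window of 300 bases, from 250 before to 50 after the start, held a median of 24 CpG, against 16 for 14667 genes. The ETS core was present in 56.0% of member windows (42.3 to 68.8) against 23.6% of all windows, CCAAT in 54.0% against 38.2%, the GC box in 54.0% against 49.6% and TATAAA in 12.0% against 11.9%. The letters GCGCATGC (NRF1) were present in 4.0% against 3.75% and AAGATGGC (YY1) in 6.0% against 4.25%. A match describes letters in a window and not a bound factor. Members with a proximal olanzapine peak and members without one had a median of 23.5 and 24 CpG, and an ETS core in 50.0% of 28 and 63.6% of 22 windows.

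Of 10 SR protein genes, 6 had a proximal peak with olanzapine (60%, 31.3 to 83.2) and 8 with clozapine (80%, 49.0 to 94.3). All 6 were among the 8. The shares of all named genes were 35.3%, inside the olanzapine interval, and 22.5%, below the clozapine interval. Srsf1, the founding SR protein, gave the strongest non-intergenic peak of any member in the olanzapine library by −log10 p, at chr10:75335145-75336126 (982 bp, fold enrichment 5.59, −log10 p 9.36), which ranked 331st of 7128. Fold enrichment is the deposited ratio of signal over a background that the sources used here do not name. In the clozapine library Srsf1 had 2 exonic peaks, of 233 bp and fold 4.20 and of 1910 bp and fold 3.95. Srsf5 had an olanzapine peak of 1340 bp with fold 3.79 and −log10 p 7.79, and a clozapine peak of 2709 bp with fold 4.51 and −log10 p 6.18. The second began 60 bp beyond the end of the first, so that the pair covered adjoining stretches of the gene. Srsf4 had an olanzapine peak of 1160 bp with fold 4.55, and clozapine peaks of 170 bp with fold 3.26 and of 692 bp with fold 2.81.

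The other SR genes marked in both libraries had 1 proximal peak in each. Srsf6 had an olanzapine peak of 1840 bp with fold 4.55 that covered the gene start given by the file's own distances, and clozapine peaks of 1254 bp with fold 3.70 and, in the 3′ UTR, of 170 bp with fold 2.76. Srsf3, which encodes the smallest SR protein, had a 5′ UTR peak of 1387 bp with fold 3.44 in the olanzapine library and an exonic peak of 1929 bp with fold 3.15 in the clozapine library. Srsf2, also known as SC35 and used as a marker of nuclear speckles, had an exonic olanzapine peak of 333 bp with fold 3.40. Its clozapine peaks measured 284 bp with fold 3.59 in an exon and 737 bp with fold 3.84 in the 3′ UTR. Srsf7 and Srsf10 had an exonic peak for clozapine only, and Srsf7 had an intronic olanzapine peak. Srsf11 had 3 clozapine peaks, 2 intronic and 1 in the 3′ UTR, and Srsf9 had an intergenic clozapine peak only.

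The hnRNP genes showed the highest share of any family in the clozapine library. Of 18 genes, 12 had a proximal peak with olanzapine (66.7%, 43.7 to 83.7) and 17 with clozapine (94.4%, 74.2 to 99.0), with 11 in both. They held 38 of the 71 proximal clozapine peaks of members and 13 of the 33 proximal olanzapine peaks. Having 2 or more proximal clozapine peaks was common among them: 13 of the 18 members of all families with such peaks were hnRNP genes. Those 18 were 32.7% of members against 6.47% of all named genes. Having 3 or more was found for 8 members (14.5%) against 2.67%. In the olanzapine library 1 member (1.82%), Hnrnpab, had 2 proximal peaks, against 1.28% of all named genes.

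Hnrnph1, whose protein binds G-rich runs, gave the strongest non-intergenic clozapine peak of any member by −log10 p, at chr10:35876964-35877325 (362 bp, fold 6.59, −log10 p 13.8), ranking 362nd of 19449. Its other 3 exonic clozapine peaks measured 510, 222 and 483 bp with folds of 3.93, 4.74 and 3.86, and a further peak of 401 bp lay in the 3′ UTR. All 5 fell inside 6950 bp, and the olanzapine library had none there. Hnrnpm had exonic clozapine peaks of 283, 328 and 170 bp, the strongest of them at chr7:18520186-18520513 with fold 5.36 and −log10 p 10.6, and no olanzapine peak. Hnrnph3, a paralogue of Hnrnph1, had exonic clozapine peaks of 857 bp with fold 2.90 and of 173 bp with fold 4.71. Hnrnph2 and Hnrnpa2b1 were likewise marked in the clozapine library alone, and the exonic peak of Hnrnpa2b1 was the longest of any member, at 3098 bp. Hnrnpr had an exonic clozapine peak of 594 bp with fold 3.17, and an intronic one of 191 bp with fold 7.75, the highest fold of any non-intergenic member peak.

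Hnrnpc, which binds uridine tracts, had a 5′ UTR olanzapine peak of 1288 bp with fold 4.40 at chr15:28515990-28517277. Its exonic clozapine peaks of 495 bp with fold 3.78 and 298 bp with fold 5.31 (−log10 p 10.6) lay 18531 bp or more away, toward the other end of the gene. Hnrnpk, a KH-domain protein that binds C-rich sequences, had an upstream olanzapine peak of 2044 bp with fold 3.54, and exonic clozapine peaks of 616, 615 and 1311 bp with folds of 3.27, 3.03 and 4.63. Both genes thus had olanzapine signal at the start and clozapine signal in the body. Hnrnpf, a relative of Hnrnph1, had a 5′ UTR olanzapine peak of 820 bp with fold 3.65 and an exonic clozapine peak of 1406 bp with fold 4.76. It also had an intronic olanzapine peak of 1212 bp with fold 3.68, placed 167 bp from the gene start, and an intronic clozapine peak. Hnrnpl, which recognises CA repeats, had an olanzapine peak of 2100 bp with fold 3.78, and clozapine peaks of 321 and 214 bp with folds of 4.16 and 4.06.

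Hnrnpd, also called AUF1 and known for binding AU-rich elements of mRNAs, lies near its paralogue Hnrnpdl on chromosome 14. Hnrnpd had an exonic olanzapine peak of 1150 bp with fold 5.16 and −log10 p 7.27. It had exonic clozapine peaks of 235, 170 and 170 bp with folds of 3.98, 3.35 and 3.14, and a 3′ UTR peak of 863 bp with fold 4.04. Hnrnpdl had an olanzapine peak of 2103 bp with fold 4.79, annotated jointly with Enoph1, and clozapine peaks of 644 and 1206 bp with folds of 3.47 and 3.28. Hnrnpa3, a relative of Hnrnpa1, had an olanzapine peak of 2084 bp with fold 4.25 and 2 clozapine peaks of 170 bp with folds of 3.85 and 2.66. Hnrnpa1 itself had an olanzapine peak of 1758 bp with fold 4.91, while its clozapine peak in the gene was intronic, with fold 3.08.

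Hnrnpu and its relatives Hnrnpul1 and Hnrnpul2 were marked in both libraries. Hnrnpu, a nuclear scaffold protein, had the longest olanzapine peak of any member, 2276 bp with fold 3.92 at chr13:96236910-96239185, and exonic clozapine peaks of 1777, 170 and 633 bp with folds of 3.48, 3.61 and 3.65. Hnrnpul1 had an olanzapine peak of 822 bp with fold 4.87, and exonic clozapine peaks of 1474 bp with fold 3.05 and of 255 bp with fold 3.81. Hnrnpul2 had the olanzapine peak with the highest −log10 p of the hnRNP genes, 7.85, at 1815 bp and fold 4.83, in a stretch shared with Ttc9c. With clozapine it had 4 exonic peaks, of 254, 260, 186 and 320 bp, with folds between 3.13 and 4.22. Hnrnpab was placed at separate positions on chromosome 10 in both libraries: olanzapine peaks of 327 bp with fold 3.93 and of 348 bp with fold 3.79, and clozapine peaks of 554 bp with fold 4.18 and of 542 bp with fold 3.61. The first of each pair lay between 34955745 and 34961270 and the second between 37049456 and 37054979, so the annotation gives this gene 2 places. Whether these are copies of 1 stretch in the assembly was not tested, and if so Hnrnpab would have 1 proximal peak in each library.

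Of 9 snRNP protein genes, 4 had a proximal peak with olanzapine (44.4%, 18.9 to 73.3) and 2 with clozapine (22.2%, 6.32 to 54.7). A single gene, 1 of the 9, had both. Over all named genes the shares were 35.3% and 22.5%, inside both intervals, so this family did not stand out. The genes of both U1-specific proteins in the set were marked in the olanzapine library only. This does not extend to U1 as a whole. Snrnp70, which encodes another U1 protein but falls outside the naming rule, had 0 proximal olanzapine and 2 proximal clozapine peaks. Snrpa, which binds a stem-loop of U1 RNA, had a 5′ UTR peak of 301 bp with fold 5.62 and −log10 p 8.86 at chr1:84008089-84008389, the shortest non-intergenic member peak of that library, ranking 441st. Snrpc, which acts in pairing U1 with the splice donor, had an exonic peak of 666 bp with the highest fold of the olanzapine member peaks, 6.05, and −log10 p 8.76. Snrpb, a protein of the Sm ring that encircles spliceosomal RNAs, had an olanzapine peak of 355 bp with fold 4.02. Snrpd2, another Sm protein, had an olanzapine peak of 309 bp with fold 4.47 and a clozapine peak of 170 bp with fold 2.94, and Snrpd1 had a clozapine peak of 172 bp with fold 4.31. Snrpe had an intronic clozapine peak, and Snrpf, Snrpg and Snrpb2 were attached to intergenic clozapine peaks only.

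Among the SF3A and SF3B genes, 4 of 8 had a proximal peak with olanzapine (50%, 21.5 to 78.5), against 35.3% of all named genes. With clozapine it was 6 of 8 (75%, 40.9 to 92.9), against 22.5%. All 4 were among the 6. Sf3b1, the largest SF3B subunit, which holds the branch site, had 9 proximal clozapine peaks, the most of any member, and only 14 of all named genes had more. Its 9 exonic peaks ranged from 170 to 2070 bp and its folds from 2.95 to 6.22, with the strongest at chr9:61600506-61601545 (−log10 p 11.2). A pair of intronic peaks brought the total to 11, spread over 37544 bp, and no olanzapine peak lay in the gene. Sf3b2 had an exonic olanzapine peak of 525 bp with fold 3.39, and clozapine peaks of 771 bp in an exon with fold 4.50 and of 173 bp with fold 5.02, the only upstream clozapine peak of a member, placed 401 bp from the gene. Sf3b3 had a clozapine peak of 170 bp with fold 3.77.

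The small SF3B subunits had single peaks in both libraries. Sf3b4 had an olanzapine peak of 881 bp with fold 5.03 and −log10 p 7.72, and a clozapine peak of 170 bp with fold 2.86. Sf3b6, which contacts the branch site adenosine, had an olanzapine peak of 789 bp with fold 4.64 and a clozapine peak of 170 bp with fold 3.28. Sf3b5 had an olanzapine peak of 565 bp with fold 4.10 and a clozapine peak of 873 bp with fold 2.83. Sf3a1 and Sf3a3, of the SF3A complex, had no proximal peak: the clozapine library placed a 3′ UTR peak of 171 bp in Sf3a1 and an intronic one of 170 bp in Sf3a3.

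Of 10 PRPF genes, 6 had a proximal peak with olanzapine (60%, 31.3 to 83.2), against 35.3% of all named genes. With clozapine it was 4 (40%, 16.8 to 68.7), against 22.5%. Both intervals include the share of all named genes, and 1 PRPF gene was marked with both drugs. That gene was Prpf19, the ubiquitin ligase of the complex named after it, with an olanzapine peak of 373 bp with fold 4.49 and −log10 p 7.48 and a clozapine peak of 170 bp with fold 3.33. Prpf4b, a kinase, had the strongest PRPF peak of the olanzapine library, 960 bp with fold 5.36 and −log10 p 7.87, and a 3′ UTR clozapine peak of 1859 bp. Prpf8, the scaffold at the centre of the spliceosome, had exonic clozapine peaks of 170, 674 and 247 bp with folds of 2.72, 2.90 and 2.83 and none for olanzapine. Prpf38b had a clozapine peak of 793 bp with fold 4.13 and −log10 p 7.55. Prpf18 and the tri-snRNP proteins Prpf31 and Prpf6 were marked in the olanzapine library alone, with folds of 3.67, 3.57 and 4.72. Prpf3, a protein of the U4/U6 snRNP, was marked in the clozapine library alone, with fold 3.03.

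**Figure D2:**
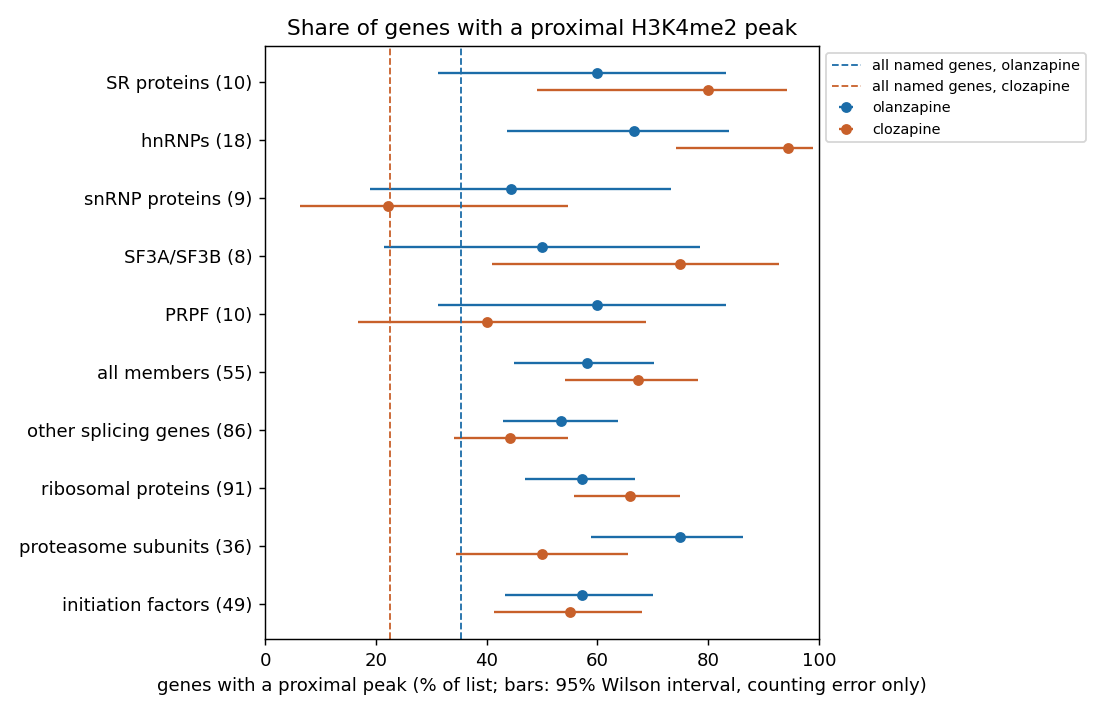
Share of genes with a proximal H3K4me2 peak (horizontal axis, % of the list) for each family, for all 55 members and for 4 other gene lists (rows, number of genes in brackets). Points are the olanzapine (blue, upper) and clozapine (orange, lower) libraries, bars are 95% Wilson intervals for counting error only, and dashed lines mark all named genes (35.3% and 22.5%). hnRNP genes reach 94.4% for clozapine, snRNP protein genes 22.2%. The list of other splicing genes, unlike the other lists, includes genes attached to no peak.

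Other genes of the splicing pathway were marked above the named genes at large in both libraries. Of 86 other spliceosome and splicing regulator genes, 46 had a proximal peak with olanzapine (53.5%, 43.0 to 63.7) and 38 with clozapine (44.2%, 34.2 to 54.7), with 21 in both. These 86 include genes attached to no peak, such as U2af2 and Eftud2, while the members and the families below hold named genes only. The shares of the 86 are therefore lower than on the base of named genes, and they are not ranked against the members. Ewsr1, an RNA-binding protein gene, had 11 proximal clozapine peaks, and Ddx39b, Dhx15 and Pcbp2 had 4 each. Gene families of other housekeeping processes had shares of the same order: 52 and 60 of 91 ribosomal protein genes (57.1% and 65.9%), 27 and 18 of 36 proteasome subunit genes (75.0% and 50.0%) and 28 and 27 of 49 translation initiation factor genes (57.1% and 55.1%) for olanzapine and clozapine. The member shares of 58.2% and 67.3% lay within this range for olanzapine and 1.3 percentage points above its top for clozapine. In the deposited pathway tables, 58 of 138 KEGG Spliceosome genes (42.0%) were counted for olanzapine and 61 of 138 (44.2%) for clozapine, with 35 counted in both. These shares cannot be set against those of all named genes, since the 138 genes need not be named in a list. Of the 138, 53 were counted and had a proximal peak with olanzapine, and 50 with clozapine. Over protein-coding genes with a curated transcript, which also need not be named, the proximal shares were 21.5% and 13.8%. Members made up 22 of the 58 and 27 of the 61.

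The class of the member peaks differed from that of all non-intergenic peaks mainly by more exonic and fewer intronic peaks. In the olanzapine library 27 of 35 member peaks were exonic (77.1%, 61.0 to 87.9), against 55.1% of 5323 peaks of all genes, and 2 were intronic (5.71%), against 18.6%. In the clozapine library 70 of 94 were exonic (74.5%, 64.8 to 82.2), against 44.1% of 9290 peaks, and 14 were intronic (14.9%, 9.08 to 23.5), against 47.9%. Upstream and 5′ UTR peaks made up 17.1% of the member peaks for olanzapine (8.10 to 32.7), against 25.1% of all, and 1.06% for clozapine, against 1.79%. The 3′ UTR class held 0 of 35 member peaks for olanzapine and 8 of 94 for clozapine (8.51%, 4.38 to 15.9), against 0.244% and 4.37% of all peaks.

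**Figure D3:**
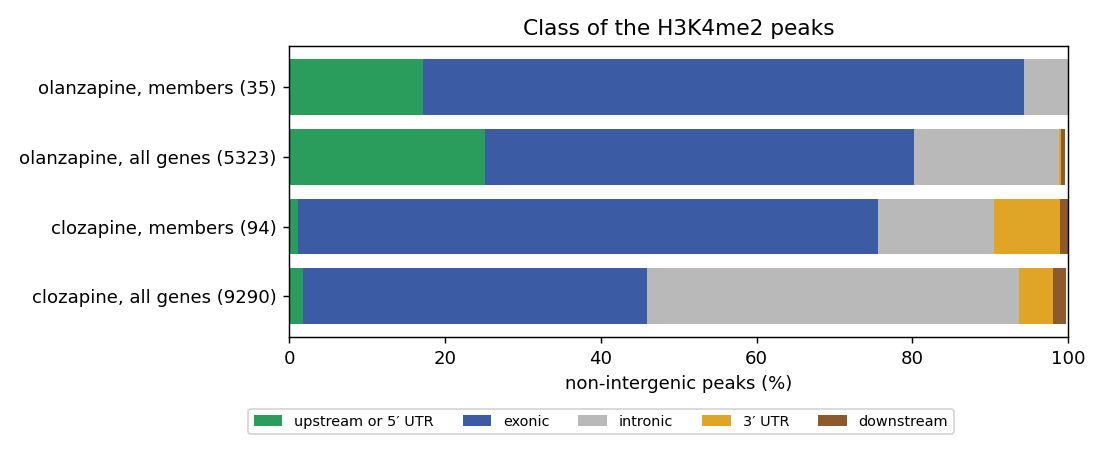
Share of non-intergenic peaks in each class (horizontal axis, %) for the 55 members and for all genes in the olanzapine (upper pair) and clozapine (lower pair) libraries, with the number of peaks in brackets. A small remainder of the peaks of all genes belongs to other classes. Exonic peaks (blue) make up 77.1% and 74.5% of member peaks, and intronic peaks (grey) 5.71% and 14.9%.

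The median length of member peaks was above that of the peaks of genes at large in both libraries, more clearly for clozapine. Their median length was 881 bp for olanzapine (301 to 2276), against 612 bp for all genes, and 320.5 bp for clozapine (170 to 3098), against 172 bp. Within the exonic class the medians were 881 bp for members and 706 bp for all genes with olanzapine, and 422.5 bp for members and 239 bp for all genes with clozapine. No olanzapine member peak was 200 bp or shorter, while 34 of 94 clozapine member peaks were (36.2%), against 59.4% of all clozapine peaks in genes. The shortest length in the clozapine list, 170 bp, was shared by 23 of the 94 member peaks. Fold enrichment set the members apart less: its median was 4.45 for olanzapine (range 3.39 to 6.05), against 4.28 for all genes. For clozapine the median fold was 3.64 (range 2.66 to 7.75), against 3.66.

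**Figure D4:**
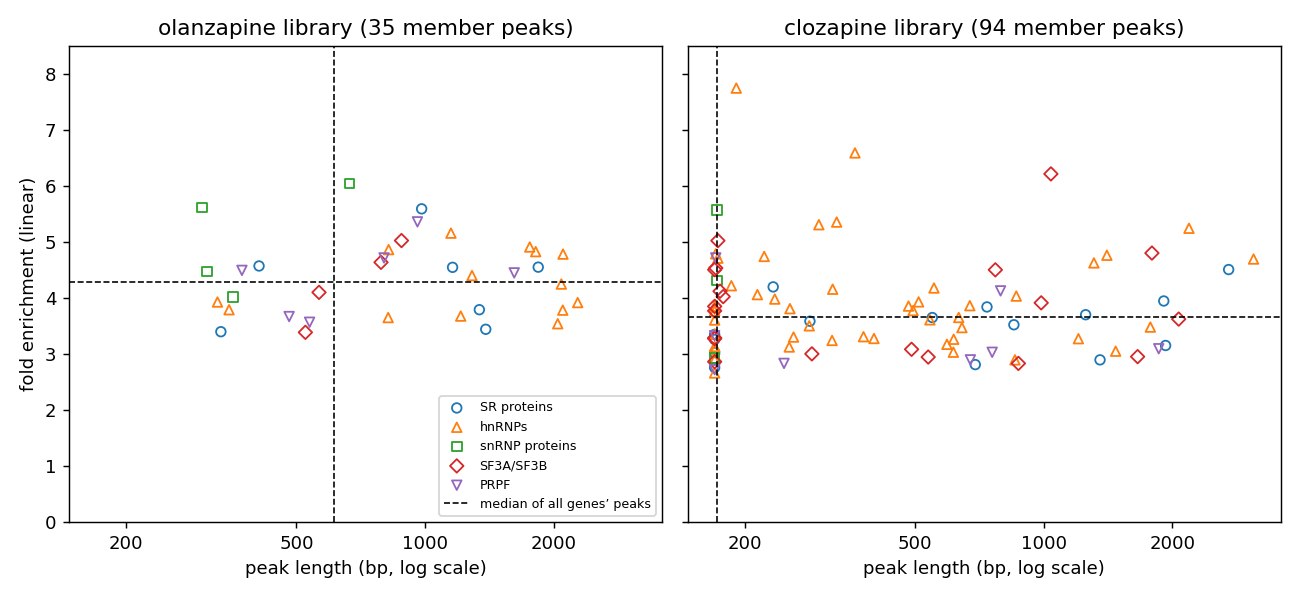
Length (horizontal axis, bp, log scale) and fold enrichment (vertical axis, linear) of the 35 olanzapine (left) and 94 clozapine (right) non-intergenic member peaks, with a symbol for each family and dashed lines at the medians of all genes. Of these peaks, 23 of 35 and 66 of 94 are longer than the median of all genes, while the folds lie on both sides of it.

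Many clozapine peaks carry the same values. A fold of 2.90 with a −log10 p of 5.15 stood on 1450 clozapine peaks, among them 4 member peaks, in Hnrnph3, Hnrnpm, Prpf8 and Srsf10. In all, 16 of the 94 clozapine member peaks had a pair of values that another peak of the list also had, so such peaks cannot be ranked against each other.

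Peaks of members in both libraries were mostly in different places of the same gene, yet they overlapped more often than those of genes at large. Of 35 olanzapine member peaks, 5 shared at least 1 bp with a clozapine peak (14.3%, 6.26 to 29.4), against 136 of 5323 for all genes (2.55%). Over genes with a peak in both libraries these numbers were 5 of 28 (17.9%, 7.88 to 35.6) for members and 135 of 2444 (5.52%) for all genes. The overlapping pairs were in Hnrnpu (633 bp shared), Srsf1 (233 bp), Srsf2 (229 bp), Sf3b5 (190 bp) and Hnrnpa3 (170 bp). In Hnrnpu, Srsf1 and Hnrnpa3 the clozapine peak lay whole inside the broader olanzapine peak. For Srsf2 the olanzapine peak was chr10:105795415-105795747 and the clozapine peak chr10:105795519-105795802. For Sf3b5 they were chr1:7101765-7102329 and chr1:7101082-7101954. All 5 pairs joined exonic peaks, a class more common among members. Where both peaks were exonic, 5 of 33 clozapine peaks of members touched the nearest olanzapine peak of the gene, against 100 of 1152 for all genes. Longer peaks, and more clozapine peaks per gene, also give more room to overlap. The parts of class, length and number in this share were not tested.

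For 25 members with a proximal olanzapine peak and a clozapine peak in the gene, the 51 clozapine peaks were measured from the olanzapine peak. The median distance between centres was 6605 bp (range 37.5 to 33128), against 19729.5 bp for all genes. Gene length, which bounds these distances, was not measured. Of 16 members with 2 or more clozapine peaks, 11 had all of them on one side of the olanzapine peak, against 726 of 779 for all genes. The direction of a gene could be read from the files themselves for 8 of the members, from the order of the transcript positions given with UTR peaks. In these, 17 of 19 clozapine peaks lay downstream of the olanzapine peak (89.5%, 68.6 to 97.1), against 1127 of 1165 for all genes (96.7%). The downstream layout was thus not particular to the members, and part of it follows from the classes, since a 5′ UTR peak precedes an exonic or 3′ UTR one by definition. Where both peaks were exonic, 7 of 8 lay downstream for members (87.5%) and 87 of 100 for all genes (87.0%). The exceptions among these 8 members were the overlapping clozapine peak of Srsf2 and the intronic one of Hnrnpf. The latter was measured from the 5′ UTR olanzapine peak. It lies downstream of the intronic olanzapine peak near the start of Hnrnpf, which is not proximal by class and was not used. Sf3b2 was not among the 8, but its upstream-class clozapine peak precedes its exonic olanzapine peak by class.

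**Figure D5:**
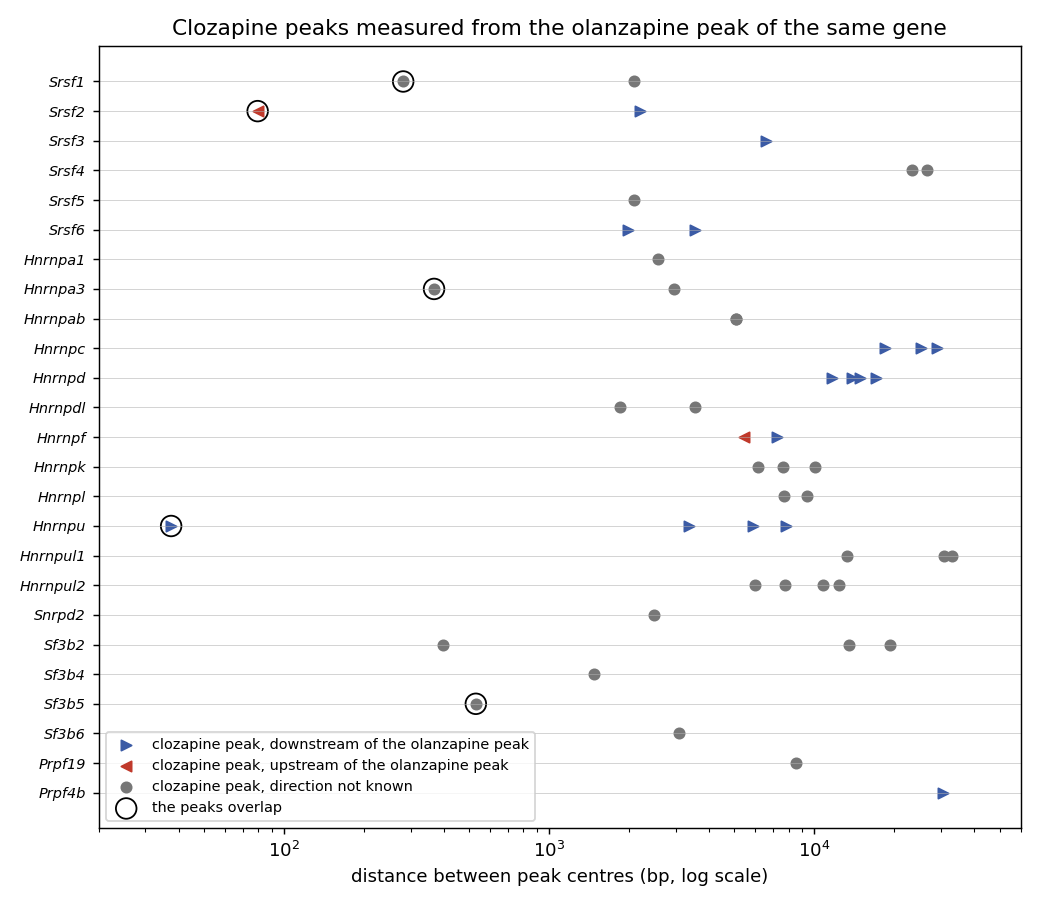
Distance between the centre of each clozapine peak and the nearest proximal olanzapine peak of the same gene (horizontal axis, bp, log scale) for 25 members (rows) and 51 clozapine peaks. Blue arrows point to peaks downstream of the olanzapine peak and red arrows upstream. Grey dots are genes whose direction was not read from UTR peaks, and circles mark the 5 overlapping pairs. Distances run between 37.5 bp in Hnrnpu and 33128 bp in Hnrnpul1.

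Some intergenic peaks were attached to a member by nearness, and their distances are given without a value for all genes. The olanzapine library had 13 such peaks at 11 members with a median distance of 18370 bp. The clozapine library had 66 at 28 members, with a median of 45944.5 bp (2558 to 816946). Hnrnpd received 9 of the 66, up to 816946 bp away. Members known from intergenic peaks alone numbered 5: Srsf9, Snrpb2, Snrpf, Snrpg and Prpf40b.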

How the data were processed

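H3K4me2 ChIP-seq of rat liver was read from the peak lists of 1 olanzapine and 1 clozapine library. The authors used BWA for alignment to Rnor_6.0 and retained reads that mapped uniquely with no mismatch. The peak caller, its threshold and its control are not given in the sources used here. The deposited lists give, per peak, position, length, class, gene, a fold enrichment as a ratio, and a p-value and q-value as −log10. Both lists extend to a −log10 q of 1.00. The authors' deposited KEGG tables gave gene counts for Spliceosome, and their p-values were not used. Excerpts of the lists and the GO tables were not used.

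Gene fields were split at semicolons, and 31 names turned into dates by a spreadsheet were left out. Positions are on Rnor_6.0 and count from 1. Of 12100 names, 10954 (90.5%) matched a symbol of the RefSeq names table of assembly GRCr8. Gene directions read from the files matched its strand for 12 of 12 member genes and 1034 of 1082 genes overall. Promoter windows of 300 bases came from the RefSeq promoter table of the same assembly. Values are printed for every member with a proximal peak in both libraries, with 2 or more in 1 library, with overlapping peaks, or among the 3 strongest of its family in a library, except for 1 gene that is not reported here. Other genes named were chosen after their values were seen. The members and lists were chosen with earlier results of these data known. With 1 library per drug, nothing was tested between drugs. Intervals are 95% Wilson intervals for shares and, for medians, 95% intervals taken from the ranked values. Alternatives were a −log10 q or fold of at least 5, peaks longer than 200 bp, other classes, chromosomes 1 to 20 and X, peaks naming 1 gene, matched symbols and other overlap rules. The overlap step was tested on simulated data, where 100% of 200 planted overlaps were recovered. Scripts ran in Python 3.11.15 with pandas 2.3.3, numpy 2.4.6, matplotlib 3.10.9 and scipy 1.17.1.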

Additional observations from a re-analysis of the deposited data

How the results depend on the processing

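Of 66 values under alternative settings, 46 stayed within 1.5 times the count or within the interval of the reported value, and 20 moved. The limits to chromosomes 1 to 20 and X and to matched symbols removed no member peak. Their values, counted among the 46, could not move and say nothing on stability. The same holds for peaks longer than 200 bp in the olanzapine counts, class share and median length. With a −log10 q of at least 5, 1 member kept a proximal peak with olanzapine and 7 with clozapine, and 0 with both. With a fold enrichment of at least 5 these counts were 6 (10.9%, against 7.39% of all named genes), 5 (9.09%, against 2.74%) and 0 (against 0.190%), and with upstream and 5′ UTR classes alone 6, 1 and 0. At a −log10 q of at least 5 the share of all named genes was 2.42% for olanzapine, beside 1.82% of members, and 3.14% for clozapine, beside 12.7% of members.

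Limited to as many clozapine peaks as the olanzapine list holds, a choice made after seeing the data, 13 members had a proximal clozapine peak (23.6%, against 5.63% of all named genes) and 7 had one in both libraries (12.7%, against 2.11%). The upstream and 5′ UTR share of member peaks was 0% at a −log10 q of at least 5, of 1 peak for olanzapine and of 13 for clozapine. For clozapine it was 12.5% of 8 peaks at a fold of at least 5 and 0% of 60 peaks longer than 200 bp. The clozapine median length was 638.5 bp for peaks longer than 200 bp and 185 bp with intergenic peaks included. Overlapping olanzapine member peaks numbered 0 at a −log10 q or a fold of at least 5, and 10 when clozapine peaks within 1000 bp counted. The olanzapine median length stayed between 821 and 982 bp. No paired analysis was possible because each group has 1 library. The missing replicates, and the lack of read numbers per peak, limit every value.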
